A study of Larimichthys polyactis and Larimichthys crocea with 36 samples.

Results

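The liver of both reciprocal hybrids between small yellow croaker (Larimichthys polyactis) and large yellow croaker (Larimichthys crocea) was compared by RNA sequencing. The hybrids are named LPC and LCP in the labels, and their parental species are written here as LP (small) and LC (large). The comparison took the 3 LPC and the 3 LCP liver libraries, 6 of the 36 libraries in the table. The others are from brain and muscle of both hybrids and from all 3 tissues of the parents, with 3 libraries in each of 12 groups. Of 24212 gene identifiers (IDs) listed, the 10529 with a value of at least 1 in at least 3 of the 6 hybrid livers were tested. Values are FPKM, in which a transcript's fragments are divided by its length and by the size of its library. The labels name no treatment, age or sex for any group, and they do not say which species was the mother of which hybrid. Nor do they say if each library is a different fish, and the p-values below then cover only the spread among the libraries sequenced, some of which may be technical. The table does not pair its IDs with gene names, so IDs are printed without names or functions.

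Reciprocal hybrids carry the same pair of parental genomes, 1 set from each species, and differ in which species gave the egg. The egg also gives the mitochondria and the stored RNA and proteins of the early embryo, and some genes in vertebrates are used differently by the parent they came from. Liver makes the main blood proteins, handles lipids and sugars, and answers growth hormone. Its RNA is therefore dominated by a small number of very abundant secreted-protein transcripts. The series is about heterosis in growth, in which hybrids depart from the parental species, and the comparison asks where the livers of the crosses differ.

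LPC livers listed more IDs and gave a smaller share of their signal to the most abundant ones than LCP livers did. The number of IDs with an FPKM of at least 1 was 10342, 11343 and 10836 in the 3 LPC livers, against 9437, 9690 and 9827 in the 3 LCP livers. All LPC livers were above all LCP livers, with means of 10840.3 ± 501 and 9651 ± 198 (SD, n = 3 each; exact 2-sided permutation p = 0.1, the smallest that 3 against 3 libraries allow). After each library was divided by its median-ratio size factor, the means were 10784 ± 348 in LPC livers and 10702 ± 104 in LCP livers (SD, n = 3 each; exact permutation p = 0.8). The 10 most abundant IDs of a library took 48.4%, 41.4% and 46.6% of the FPKM sum in LPC, against 54.3%, 49.2% and 48.6% in LCP. The groups did not overlap here either, with means of 45.5% ± 3.63 and 50.7% ± 3.15 (SD, n = 3 each; exact permutation p = 0.1). The single most abundant ID went the other way, at 13.7% ± 3.81 in LPC livers and 13.3% ± 1.81 in LCP livers (SD, n = 3 each; exact permutation p = 0.9). FPKM sums were 858778 to 977368 in LPC and 940372 to 973184 in LCP, and they do not measure depth, which is unknown.

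The label liver was checked without gene names, through IDs chosen in the parental libraries alone. Liver-enriched IDs had a parental liver mean of log2(FPKM + 1) at least 3 above that of brain and muscle in both species, and a mean FPKM of at least 5. These 449 IDs took 66.7%, 64.9% and 64.8% of the FPKM sum in LPC livers, against 74.8%, 71.4% and 70.7% in LCP livers (exact permutation p = 0.1). Both hybrids were above the parents, whose livers gave these IDs 57.0% ± 5.11 (LP) and 52.8% ± 0.952 (LC; SD, n = 3 each). Brain-enriched IDs took 0.278% ± 0.0325 in LPC livers and 0.215% ± 0.0368 in LCP livers (SD, n = 3 each; exact permutation p = 0.2). Muscle-enriched IDs took 0.029% ± 0.0116 in LPC livers and 0.0192% ± 0.0137 in LCP livers (SD, n = 3 each; exact permutation p = 0.3). In bulk tissue, fewer cells of a type and less RNA per cell cannot be told apart, and how far the makeup of the tissue takes part in the results was not tested.

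**Figure D1:**
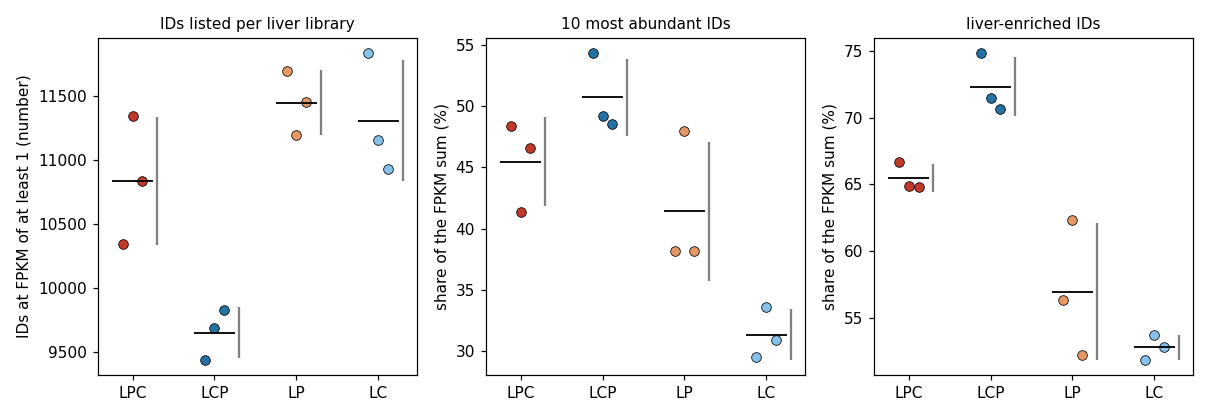
The panels give, for each liver library, the number of IDs with an FPKM of at least 1, the percent of the FPKM sum in its 10 most abundant IDs, and the percent in the 449 liver-enriched IDs. Points are libraries, horizontal lines are group means and grey bars are ± 1 SD (n = 3). LPC and LCP do not overlap in any panel, and the LCP livers hold the fewest IDs and the largest liver-enriched share of the 4 crosses.

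Across the transcriptome, most IDs shared a shift between the hybrids as deposited. Spearman correlations across the tested IDs were 0.825 to 0.884 over the 9 pairs of 1 LPC and 1 LCP liver, against 0.857 to 0.888 within LPC and 0.861 to 0.889 within LCP. The median log2 difference, LPC minus LCP on the log2(FPKM + 1) scale, was 0.36, and 86.0% of the IDs had a positive value. After median-ratio scaling the median was 0.00 and the positive share was 50.3%. The deposited balance of higher and lower IDs therefore includes a shift shared by most IDs, and the calls below were checked on both scales. Log2 fold changes on this scale understate the change of low IDs.

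By limma at an adjusted p under 0.05, 37 IDs were higher and 8 were lower in LPC than in LCP. These are 0.351% and 0.076% of the 10529 IDs tested, 0.427% in all. After median-ratio scaling 24 IDs were higher (0.228%) and 19 lower (0.18%), together 0.408%, and 24 and 8 were called in the same direction both ways, 0.304% of the IDs. IDs with no overlap between the 3 LPC and the 3 LCP libraries were far more numerous, at 3382 higher (32.1%) and 152 lower (1.44%) as deposited. After scaling they were 689 higher (6.54%) and 830 lower (7.88%), so the excess of higher over lower IDs was absent. On both scales they were 689 (6.54%) and 152 (1.44%). Scaling lowers LPC values and raises LCP values, so these are the higher IDs after scaling and the lower IDs as deposited. The 24 and 8 calls made both ways are likewise the higher calls after scaling and the lower calls as deposited. The excess of higher IDs on both scales thus carries the direction of the shift. For a single ID such a separation has an exact 2-sided permutation p of 0.1, so many of these IDs can separate by chance. Leaving out LCP liver 1 left 7 higher and 3 lower calls, and leaving out LCP liver 3 left 9 and 3. Without LPC livers 1, 2 and 3 the counts were 26 and 3, 11 and 4, and 15 and 3, and without LCP liver 2 they were 25 and 9. The number of calls thus moved by more than 1.5 times with a library. All 45 called IDs kept their sign in each of these fits. None of the 45 overlapped between the hybrids, so leaving out a library could not change their sign.

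**Figure D2:**
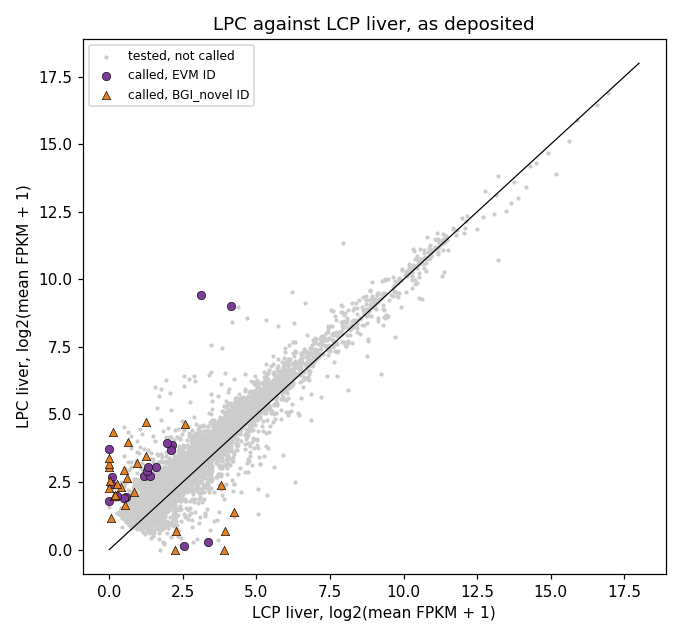
Each point is 1 of the 10529 IDs tested, with log2(mean FPKM + 1) of the LCP livers across and of the LPC livers up, and the line marks equal values. Grey points were not called, and circles and triangles are the EVM and BGI_novel IDs among the 45 called. Most grey points below about 7.5 on the axes sit above the line, and most called IDs lie along the edge where 1 hybrid is near 0.

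Most called IDs were near absent in the hybrid where they were lower. The mean FPKM of the lower hybrid was under 1 in 24 of the 37 IDs higher in LPC and in 6 of the 8 lower in LPC, 66.7% of the 45, against 10.1% of all IDs tested. An ID near 0 in 1 hybrid passed the filter only through the other, where it is high, so these shares are descriptions. In 6 of the 37 all LCP livers were listed at 0, and in 2 of the 8 all LPC livers were. The level on the high side was moderate, with a median FPKM of 6.42 and a range of 1.23 to 678 for the IDs higher in LPC, and 11.1 and 3.72 to 17.7 for those lower in LPC. The log2 differences ran from 1.08 to 6.26 and from -3.90 to -1.38. There were 7 IDs with an FPKM of at least 1 in all LPC livers and 0 in all LCP livers, of which 6 were called, and 4 the other way round, of which 2 were called. IDs starting with BGI_novel were 5 of the 7 and 3 of the 4.

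On the log2(FPKM + 1) scale, the largest differences were at a pair of EVM IDs with chromosome number 16 that were abundant in LPC liver. The order depends on the scale, and BGI_novel_G001563 had a larger ratio of mean FPKM, at 187-fold. evm.model.Chr16.193 had an FPKM of 713, 214 and 1107 in LPC livers, against 15.01, 3.57 and 4.17 in LCP livers. The lowest LPC liver was above the highest LCP liver by more than the whole LCP range, and the 3 LPC livers spread widely among themselves. The log2 difference was 6.26 (SE 0.71, limma adjusted p = 0.0221), an 89.4-fold ratio of mean FPKM. Parental livers were nearer to LCP and uneven, with an FPKM of 6.58, 4.12 and 23.7 in LP (mean 11.5). LC livers had 0.48, 0.25 and 30.5, so their mean of 10.4 rests on 1 library. The call was lost without LPC livers 1 or 3 (adjusted p = 0.0675 and 0.0834) or without LCP livers 2 or 3 (0.0601 and 0.0885), with log2 differences of 5.76 to 6.94 over all libraries left out.

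evm.model.Chr16.191 had an FPKM of 730, 589 and 224 in LPC livers, against 14.4, 24.6 and 11.3 in LCP livers. Again the groups were far apart, and LPC 3 was the lowest of its group. The log2 difference was 4.76 (SE 0.50, limma adjusted p = 0.0156), a 30.7-fold ratio of means. The parental species differed at this ID too, with 833, 5771 and 2763 in LP livers, against 0, 0.22 and 13.0 in LC livers. LPC livers lay below the LP livers and above the LC livers, and LCP livers lay near the highest LC liver. The call was lost without LPC liver 2 (adjusted p = 0.0773), LCP liver 1 (0.0745) or LCP liver 3 (0.0674). In brain and muscle both Chr16 IDs had an FPKM under 1 in all 24 libraries and were not tested there.

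On the same scale, the IDs with the lowest differences were BGI_novel IDs found in LCP and in 1 parent. BGI_novel_G002127 was listed at 0 in all 3 LPC livers and had an FPKM of 13.4, 13.0 and 15.5 in LCP livers (limma adjusted p = 3.74e-04). It was also listed at 0 in all 3 LP livers, and had 68.2, 37.1 and 10.2 in LC livers. BGI_novel_G001591 had 0, 1.86 and 0 in LPC livers, against 11.5, 15.8 and 15.6 in LCP livers. Here the parent with a high level was the other species, with a mean of 36.8 in LP and 0.223 in LC. Its log2 difference was -3.41 (SE 0.42, limma adjusted p = 0.0264). G002127 kept its call in each of the 23 alternatives run, while G001591 kept it without LPC liver 2 alone among the libraries left out (adjusted p = 0.0751 to 0.11 without each of the others).

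**Figure D3:**
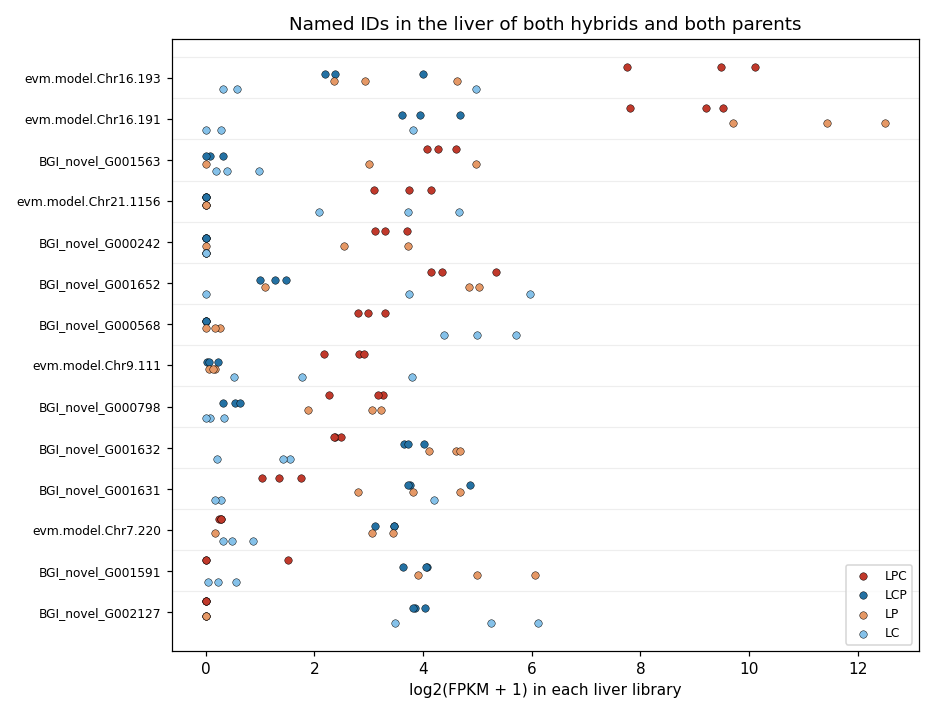
Points are single liver libraries of LPC, LCP, LP and LC on the log2(FPKM + 1) scale for the 14 called IDs named by the rule given under processing, ordered by the difference LPC minus LCP. The 9 IDs at the top have all LPC livers to the right of all LCP livers and the 5 at the bottom the reverse, while the parental livers side with LPC at some IDs and with LCP at others.

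IDs that differ between the parental species were called in both directions between the hybrids. By limma in the 6 parental livers alone, 560 IDs were higher in LC than in LP (LC-high, 4.74% of 11809 tested) and 577 were lower (LP-high, 4.89%). Of the 461 LC-high IDs tested in the hybrids, 2 were higher and 2 lower in LPC than in LCP (0.868%). Of the 449 LP-high IDs tested, 4 were higher and 3 lower (1.56%), where 0.427% of all IDs tested were called. The median log2 difference was 0.23 for LC-high and 0.43 for LP-high IDs, against 0.36 for all IDs tested, and -0.13 and 0.07 against 0.00 after median-ratio scaling. So LC-high IDs sat below and LP-high IDs above the centre of all IDs on both scales. Neither parental group held 34 of the 45 called IDs (75.6%) and 91.4% of all IDs tested. These include IDs that did not pass the filter in the parental livers, such as BGI_novel_G001563 and evm.model.Chr7.220. How many were not tested there was not counted, so being in neither group does not show equal levels in the species. As deposited, the lower hybrid was below both parental means in 28 of the 45, and the higher hybrid was above both in 21. The same shares over all IDs tested were not computed, so these counts do not set the called IDs apart. Median-ratio size factors over all liver libraries were 0.694 to 0.771 in LCP and 0.966 to 1.05 in LPC, against 1.11 to 1.33 in the parents. Deposited values of most IDs are thus shifted down in the hybrids, most in LCP.

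Among LC-high IDs, evm.model.Chr21.1156 had an FPKM of 12.4, 16.7 and 7.52 in LPC livers and was listed at 0 in all 3 LCP livers (limma adjusted p = 0.0034). LP livers were also listed at 0, and LC livers had 12.1, 3.25 and 24.3. BGI_novel_G000568 had 8.84, 5.98 and 6.93 in LPC livers and was listed at 0 in all LCP livers (limma adjusted p = 0.00109), with means of 0.11 in LP and 34.2 in LC. In both cases LPC resembled LC in listing the ID, and LCP resembled LP in listing little or none of it, the reverse of G002127. The calls of these 2 IDs and of G002127 were the 3 that held in all 23 alternatives.

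Among LP-high IDs, BGI_novel_G000798 had an FPKM of 3.81, 8.56 and 8.01 in LPC livers, against 0.46, 0.54 and 0.24 in LCP livers. The log2 difference was 2.41 (SE 0.29, limma adjusted p = 0.023), a 16.4-fold ratio of means, and the LPC mean of 6.79 was near that of LP at 6.14. BGI_novel_G001632 had 4.18, 4.59 and 4.14 in LPC livers, against 11.5, 15.1 and 12.1 in LCP livers. Its log2 difference was -1.38 (SE 0.19, limma adjusted p = 0.0368), and both hybrids lay between the parental means of 21.4 in LP and 1.26 in LC. G000798 kept its call without LPC liver 1 (adjusted p = 0.00595) and lost it without any other (0.066 to 0.105). G001632 lost it without each of the 6 libraries in turn (0.0891 to 0.13).

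Set between the parents over all LC-high and LP-high IDs, both hybrids lay near the middle, with LPC somewhat nearer LP. The position of a library is its median place over these IDs, scaled so that the LP mean is -1 and the LC mean is 1. These IDs were chosen for their gap in the same parental livers that set both ends. Such a choice can widen the gap and draw other libraries toward the middle. It was -0.123, -0.147 and -0.103 in LPC livers, against -0.098, -0.033 and -0.021 in LCP livers. The groups did not overlap, by a small margin, and LCP spread more widely. After median-ratio scaling the positions were -0.117, -0.146 and -0.082 in LPC, against -0.075, -0.002 and 0.104 in LCP. The groups of IDs gave different positions as deposited. Over LC-high IDs the position was -0.395 ± 0.0133 in LPC and -0.680 ± 0.0891 in LCP, and over LP-high IDs it was 0.148 ± 0.0588 in LPC livers and 0.598 ± 0.099 in LCP livers (SD, n = 3 each). LCP was thus nearer LP over the LC-high IDs and nearer LC over the LP-high IDs. As deposited, the places near the middle over all these IDs therefore join positions of opposite sign in both hybrids. After scaling the mean position over LC-high IDs was -0.179 in LPC and -0.026 in LCP. Over LP-high IDs it was -0.049 in LPC and 0.061 in LCP, and the libraries overlapped.

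**Figure D4:**
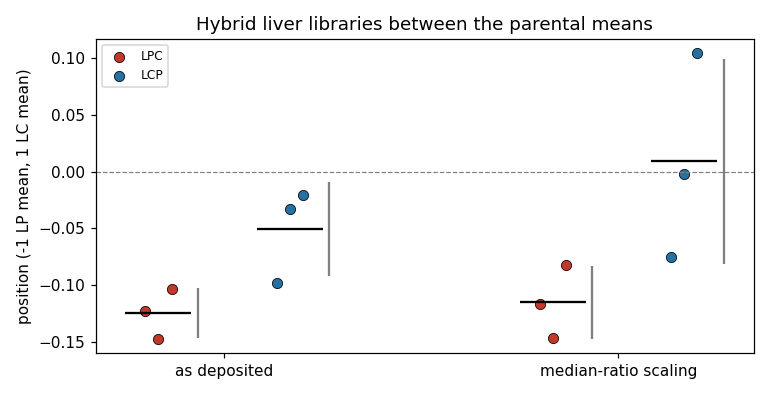
Points are the 6 hybrid liver libraries, with the median position over IDs that differ between the parental livers on the vertical axis (LP mean at -1, LC mean at 1), as deposited and after median-ratio scaling. Horizontal lines are means and grey bars ± 1 SD (n = 3). LPC livers lie between -0.147 and -0.082 on both scales, and LCP livers between -0.098 and 0.104.

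IDs starting with BGI_novel, a class set apart in the deposited annotation by name alone, made up more of the calls than of the IDs tested. They were 843 of the 10529 IDs tested and 26 of the 45 called, 20 higher and 6 lower in LPC. That is 3.08% of the BGI_novel IDs tested, against 0.196% of the 9686 EVM IDs tested and 0.427% of all. Among IDs with a mean FPKM under 20, a comparison chosen after seeing the data, the shares were 3.47% of 749 BGI_novel IDs and 0.205% of 8304 EVM IDs. After median-ratio scaling 25 BGI_novel and 18 EVM IDs were called. Without 1 library at a time the counts were 4 to 22 BGI_novel and 6 to 14 EVM IDs, the fewest of both without LCP liver 1. BGI_novel IDs also varied more within a cross, with a median within-cross SD of 0.506 on the log2 scale, against 0.285 for EVM IDs. A larger share of the BGI_novel IDs tested was called in LC minus LP liver too, 32% against 7.51% of the EVM IDs tested. The part of the wider spread in these counts was not tested.

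BGI_novel_G001563 had an FPKM of 15.9, 18.5 and 23.5 in LPC livers, against 0.06, 0 and 0.25 in LCP livers. The log2 difference was 4.19 (SE 0.20, limma adjusted p = 7.18e-04), a 187-fold ratio of means, and the call held without any 1 library (adjusted p = 0.00295 to 0.0142). BGI_novel_G000242 had 8.86, 12.1 and 7.61 in LPC livers and was listed at 0 in all LCP livers (limma adjusted p = 0.00109). Both IDs were low or absent in LC livers, at means of 0.47 and 0, and uneven in LP livers, with 30.5, 7.00 and 0 for G001563 and 12.2, 0 and 4.83 for G000242. BGI_novel_G001631 went the other way, with 2.37, 1.04 and 1.54 in LPC livers, against 12.6, 28.2 and 12.2 in LCP livers. Its log2 difference was -2.74 (SE 0.36, limma adjusted p = 0.0351). That call remained without LCP liver 2 (adjusted p = 0.0383) and was lost without any other library (0.0675 to 0.126).

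Called EVM IDs were spread over the chromosomes by the number in their names, with 0 to 5 per chromosome and none on 11 of 24. Chromosome 9 had 5 of its 482 tested IDs called, 1.04%, against 0.197% of all 9660 EVM IDs with a chromosome number, and no other had more than 2. It was singled out as the highest of 24 after the counts were seen, and no test of its count was run. These 5, named because they are few and after their values were seen, are Chr9.111, Chr9.440, Chr9.512 and Chr9.697, higher in LPC, and Chr9.305, lower. evm.model.Chr9.440 had an FPKM of 4.85, 4.63 and 3.58 in LPC livers, against 0.10, 0.03 and 0 in LCP livers, and at most 0.59 in any parental liver (log2 difference 2.35, SE 0.17, limma adjusted p = 0.00292). evm.model.Chr9.305 had 0, 0.04 and 0.25 in LPC livers, against 5.46, 4.27 and 4.69 in LCP livers, with means of 0.73 in LP and 7.88 in LC (log2 difference -2.41, SE 0.17, limma adjusted p = 0.00292). After scaling Chr9.512 was no longer called (adjusted p = 0.112). Over all their IDs the chromosomes were close to each other, with medians of -0.02 to 0.04 after scaling and 5.11% to 9.61% of IDs without overlap on both scales. Positions along a chromosome were not used here.

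Chr9.440 was 1 of 4 called IDs with a mean FPKM under 1 in both parental livers and a higher level in LPC, named here after their values were seen. BGI_novel_G000289 had 2.92, 4.49 and 6.89 in LPC livers, against 0.03, 0 and 0 in LCP livers, and was listed at 0 in all 6 parental livers (log2 difference 2.46, SE 0.26, limma adjusted p = 0.0163). The others were evm.model.Chr4.416 and evm.model.Chr2.168. Chr4.416 had LPC livers at 1.62 to 3.34, all LCP livers listed at 0, and parental livers at 0 to 1.71, which overlapped LPC. Chr2.168 had LPC livers at 2.05 to 3.14, LCP livers at 0.27 to 0.53 and parental livers at 0.08 to 0.85. No called ID lower in LPC was of this kind, but only 8 were called lower. The share of such IDs among all IDs tested was not computed, so the count is a description. Chr2.168 was not called after scaling (adjusted p = 0.0542).

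The IDs that mark liver against the other tissues held no call as deposited. Of 448 liver-enriched IDs tested, 0 were called by limma, against 0.427% of all IDs tested. At that share few calls would fall in a group of this size, so the 0 does not set these IDs apart. At an unadjusted p under 0.05, 85 were higher (19.0%) and 20 lower (4.46%), against 23.3% and 1.42% of all IDs tested. After scaling the balance was reversed, with 13 higher and 77 lower at the same threshold, against 437 and 526 of all 10529 IDs. The median log2 difference of the liver-enriched IDs was 0.29, against 0.36 for all IDs tested, and -0.16 against 0.00 after scaling. On the scaled values 276 of the 448 (61.6%) were below the median of all IDs, and 2 were called lower, against 19 (0.18%) of all IDs tested. These 2, named after their values were seen, are evm.model.Chr1.19 and evm.model.Chr10.975. evm.model.Chr1.19 had an FPKM of 10263, 16948 and 18601 in LPC livers, against 44939, 29571 and 38059 in LCP livers (scaled log2 difference -1.79, SE 0.25, limma adjusted p = 0.044; as deposited adjusted p = 0.0945). evm.model.Chr10.975 had 4808, 6410 and 5164 in LPC livers, against 9025, 8451 and 8096 in LCP livers (scaled log2 difference -1.12, SE 0.16, limma adjusted p = 0.0447; as deposited adjusted p = 0.129). LPC livers were the lower in both, with no overlap.

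The 5 most abundant IDs of the hybrid livers were not called on either scale. They took 41.3%, 30.7% and 37.3% of the FPKM sum in LPC livers, against 41.6%, 38.6% and 35.4% in LCP livers, so that the groups overlapped. evm.model.Chr8.886, the most abundant, had an FPKM of 162704, 91108 and 109873 in LPC, against 144249, 119359 and 114902 in LCP (log2 difference -0.09, SE 0.21, limma adjusted p = 0.765). evm.model.Chr16.833 (log2 difference -0.17, adjusted p = 0.59) and evm.model.Chr7.373 (0.05, adjusted p = 0.918, and -0.41 after scaling, a change of sign) also overlapped as deposited. evm.model.Chr20.749 had 27588, 32799 and 45124 in LPC, against 41609, 46478 and 64461 in LCP (log2 difference -0.54, SE 0.23, limma adjusted p = 0.202). evm.model.Chr2.134 was lower in all LPC livers without passing the test, with 24197, 28093 and 26066 in LPC, against 29626, 32554 and 30290 in LCP (log2 difference -0.24, SE 0.11, limma adjusted p = 0.219; -0.71 after scaling, adjusted p = 0.0542). After scaling Chr8.886 was at -0.56 and Chr16.833 at -0.64, so all 5 had a negative difference on that scale. Chr16.833 and Chr20.749 no longer overlapped there.

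By abundance in the parental livers, the share of IDs called was 2.25% for a mean FPKM under 1 (5 higher and 0 lower of 222) and 0.454% for 1 to 5 (17 and 4 of 4629). It was 0.421% for 5 to 20 (12 and 4 of 3799), 0.152% for 20 to 100 (2 and 0 of 1314) and 0.177% for 100 or more (1 and 0 of 565), against 0.427% of all IDs tested. The tiers from 1 to 20 were thus near the share of all IDs. Of the 565 most abundant, 66 were higher (11.7%) and 22 lower (3.89%) at an unadjusted p under 0.05, against 23.3% and 1.42% of all IDs. After scaling 11 were higher and 91 lower at that threshold, against 437 and 526 of all 10529 IDs, and 1 and 2 were called. The median difference of these 565 was 0.20 as deposited and -0.27 after scaling, below that of all IDs on both scales. IDs with even levels in all parental tissues, 56 in number, had medians of 0.43 and 0.03 on these scales and 0 calls by limma, with 17 higher (30.4%) and 0 lower at an unadjusted p under 0.05. Of 326 brain-enriched IDs tested in liver, 2 were higher (0.613%) as deposited and 1 after scaling. Of 34 muscle-enriched IDs 0 were called by limma, with 3 higher (8.82%) and 0 lower at an unadjusted p under 0.05. Groups of 56 and 34 IDs would rarely hold a call at the share of all IDs.

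Of the liver calls also tested in another tissue, 1 passed the test in brain and 9 passed it in muscle. Of the 45 called IDs, 32 were tested in brain, and as deposited all 32 had the same sign there (24 higher and 8 lower). After scaling 29 did, 21 of 24 higher and 8 of 8 lower. Of all IDs tested in liver and brain, 59.6% were higher in LPC brain as deposited and 42.3% after scaling. The brain libraries did not overlap, in the liver's direction, for 16 of the 32. Of all IDs tested in liver and brain, 3.95% were without overlap higher in LPC brain and 2.54% lower. Brain itself had 1 call among 16767 IDs tested (0.00596%), BGI_novel_G001563. In muscle, 23 of the 45 were tested and 20 had the same sign as deposited, 16 of 17 higher and 4 of 6 lower, where 81.0% of all IDs were higher in LPC muscle. After scaling 18 had the same sign, 13 of 17 higher and 5 of 6 lower, where 48.7% of all IDs were higher. As deposited, the muscle libraries did not overlap, in the liver's direction, for 12 of the 23 (10 of 17 higher and 2 of 6 lower). Here the share over all IDs tested in liver and muscle was 32.8% without overlap higher in LPC muscle and 3.62% lower. Muscle had 366 IDs higher (3.73%) and 33 lower (0.336%) as deposited, 4.06% of 9825, and 134 (1.36%) and 173 (1.76%) after scaling. Its higher count was 55, 58 and 227 without LPC muscles 3, 2 and 1, and 118 and 1331 without LCP muscles 1 and 3. Both tissues called 9 IDs in the same direction and 0 in opposite ones. They are 39.1% of the 23 liver calls tested in muscle and 3.36% of the 268 muscle calls tested in liver, and 7 of them are BGI_novel IDs, as are 12 of the 23 tested. Tested in neither tissue were 12 of the IDs higher in LPC and 0 of those lower.

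BGI_novel_G001563 was called in all 3 tissues. In brain it had an FPKM of 112, 159 and 114 in LPC, against 0.81, 0.40 and 0.78 in LCP (log2 difference 6.27, limma adjusted p = 0.00118). In muscle it had 23.0, 17.4 and 22.6 in LPC and was listed at 0 in all LCP libraries (limma adjusted p = 5.52e-05). LCP was near or at 0 in all 9 of its libraries. BGI_novel_G002127 showed the reverse in all tissues, listed at 0 in all 9 LPC libraries, with 4.91, 18.6 and 11.8 in LCP brain (limma adjusted p = 0.214) and 146, 134 and 127 in LCP muscle (limma adjusted p = 4.42e-06).

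**Figure D5:**
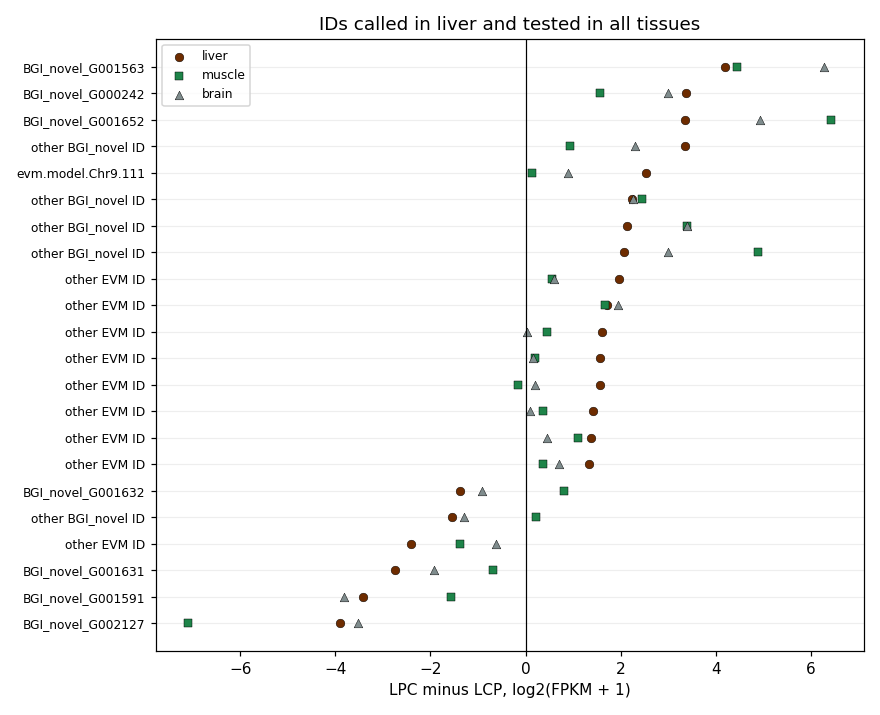
Each row is 1 of the 22 IDs called in liver and tested in all 3 tissues, and symbols give the log2(FPKM + 1) difference as deposited, LPC minus LCP, in liver (circle), muscle (square) and brain (triangle). The vertical line is at 0. Brain triangles lie on the same side as liver circles in all rows, muscle squares on the other side in 3, and at several EVM IDs brain and muscle lie close to 0.

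Whether the difference between the hybrids itself differed between tissues was tested over the 18 hybrid libraries. By limma, 46 of 7773 IDs (0.592%) had a difference in liver unlike that in muscle, 33 higher (0.425%) and 13 lower (0.167%), and 8 of 9516 (0.0841%) a difference unlike that in brain, 6 higher (0.0631%) and 2 lower (0.021%). After median-ratio scaling 54 (0.695%) and 21 (0.27%) differed from muscle, and 2 (0.021%) and 3 (0.0315%) from brain. The counts against muscle were 6 to 15 higher and 1 to 6 lower without any 1 liver library other than LCP liver 3. Of the 23 liver calls tested in muscle, 6 were among the 46, and of the 32 tested in brain, 2 were among the 8. Liver calls were chosen for a large difference in liver, which is 1 term of these tests. Shares above those of all IDs thus follow in part from that choice, and these counts are descriptions. evm.model.Chr21.1156, at 0 in all LCP livers, had 1.54, 0.77 and 1.33 in LPC muscle, against 0.77, 1.17 and 1.25 in LCP muscle, with overlap (liver minus muscle, limma adjusted p = 0.0012). evm.model.Chr9.111 had 3.53, 6.07 and 6.54 in LPC livers, against 0.02, 0.04 and 0.17 in LCP livers (log2 difference 2.53, SE 0.23, limma adjusted p = 0.00835), and 3.97, 2.68 and 2.87 in LPC muscle, against 1.91, 3.72 and 2.88 in LCP muscle. At this ID the livers separated and the muscles overlapped, and the tissues differed by 2.40 on the log2 scale (limma adjusted p = 0.0473).

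BGI_novel_G001652 was called higher in LPC in liver and in muscle. It had 16.6, 39.3 and 19.4 in LPC livers, against 0.99, 1.41 and 1.78 in LCP livers (log2 difference 3.36, SE 0.34, limma adjusted p = 0.0147). In muscle it had 251, 424 and 418 in LPC, against 3.13, 2.32 and 4.12 in LCP (log2 difference 6.43). The liver difference was smaller than that in muscle by 3.07 (limma adjusted p = 0.0242). In brain it had 68.3, 233 and 77.2 in LPC, against 2.46, 2.84 and 2.44 in LCP, without overlap but not called (log2 difference 4.92, limma adjusted p = 0.0738). evm.model.Chr7.220 was lower in LPC, with 0.18, 0.22 and 0.22 in LPC livers, against 9.97, 10.1 and 7.61 in LCP livers (log2 difference -3.07, SE 0.17, limma adjusted p = 0.00109). In brain it had 1.77, 3.01 and 2.15 in LPC, against 5.07, 8.90 and 7.64 in LCP, without overlap but not called (limma adjusted p = 0.977), and liver and brain differed by -1.78 (limma adjusted p = 0.0348). The liver call of G001652 was lost without LPC liver 3, LCP liver 1 or LCP liver 3 (adjusted p = 0.0556 to 0.0715), that of Chr9.111 without LPC liver 2, LCP liver 1 or LCP liver 3 (0.0514 to 0.0695), and while that of Chr7.220 held without each of the 6 livers (0.00494 to 0.0155).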

How the data were processed

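RNA was extracted with TRIzol and mRNA taken on oligo(dT) beads, per the labels' protocols. Reads passed through fastp, per the submitters' processing notes, while the names of an aligner, a quantifier, a genome build or an annotation were not given in the sources used here. The authors deposited FPKM values, 1 column per library and not pooled, and each column's name matched 1 library. FPKM is a share of a library, so a few abundant transcripts move all others. Depth is unknown, and no count test was run.

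limma 3.58.1 in R 4.3.3 was fitted to log2(FPKM + 1) of the 6 hybrid livers (pseudocount 1, mean-variance trend, 2-sided, Benjamini-Hochberg over all IDs tested), as deposited and after median-ratio scaling. Parental and tissue groups came from parental libraries only. Brain, muscle and the difference between tissues used the same model. Scripts were tested on simulated data with the spread of these livers. There the test recovered 32.7% of log2 differences of 1 and 74.3% of those of 2, so an ID not called may still differ. These rates describe the simulation and need not hold in the livers themselves. Single values were compared by exact permutation. IDs named by rule were at most 2 per direction and group, called on both scales, with a mean FPKM of at least 5 in 1 hybrid and no overlap, plus the 5 most abundant. IDs said above to be named after their values were seen fall outside this rule and need not meet it. Members, groups and this rule were chosen with earlier results of these data known.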

Additional observations from a re-analysis of the deposited data

Results flagged for a closer look

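The difference between the hybrids in liver was unlike that in another tissue, by limma on the 18 hybrid libraries, for 46 IDs in liver against muscle and for 8 IDs in liver against brain. The values are the liver difference (LPC minus LCP) minus that of the other tissue, on the log2(FPKM + 1) scale. Against muscle it was 3.57 for evm.model.Chr21.1156 (adjusted p = 0.0012), 3.19 for BGI_novel_G002127 (adjusted p = 0.00161), 1.80 for BGI_novel_G000242 (adjusted p = 0.0212), 2.40 for evm.model.Chr9.111 (adjusted p = 0.0473) and -3.07 for BGI_novel_G001652 (adjusted p = 0.0242). Against brain it was -2.08 for BGI_novel_G001563 (adjusted p = 0.00696) and -1.78 for evm.model.Chr7.220 (adjusted p = 0.0348). For G002127, G000242, G001652, G001563 and Chr7.220 the hybrids differed in the same direction in both tissues of the pair. The test then concerns the size on the log2(FPKM + 1) scale, which is not the ratio between the hybrids at low values. G002127, listed at 0 in all LPC libraries, averaged 13.9 ± 1.34 in LCP liver and 135 ± 9.76 in LCP muscle (SD, n = 3 each). G000242, listed at 0 in LCP liver and muscle, averaged 9.51 ± 2.30 in LPC liver and 1.98 ± 0.319 in LPC muscle (SD, n = 3 each). With 1 hybrid at 0 in both tissues, the values for G002127 and G000242 only restate the level of the other hybrid in each tissue. G001563 is close to this case, with LCP means of 0.103 in liver and 0.663 in brain, against LPC means of 19.3 and 128. The added 1 compresses such LCP values, so its -2.08 largely follows the LPC level and does not show a different ratio between the hybrids. Each of these 7 IDs also passed the test after median-ratio scaling. Groups of 3 libraries were too small to look for a single library far from the others.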

How the results depend on the processing

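All 45 liver calls kept their sign in each of the 23 alternatives in which they were tested. For most alternatives this was fixed in advance. None of the 45 overlapped between the hybrids, so leaving out a library as deposited could not change a sign. Fits with other filters, all 12 livers, no variance trend or a replicate block keep the same log2 difference. Of these calls 3 held in all alternatives and 8 in all or all but 1. Against 37 higher and 8 lower, there were 24 and 19 after median-ratio scaling, 20 and 14 after quantile normalization, 19 and 17 after a shift to a common median, 19 and 4 with a pseudocount of 5, 9 and 5 with no filter and 19 and 5 with an FPKM of at least 5 in 3 libraries. The median log2 difference of 0.36 became 0.00216, -0.00065 and -0.0095 under the 3 scalings, 0.457 and 0.185 with pseudocounts of 0.1 and 5, and 0.172 and 0.411 without the filter and with the stricter one. Leaving out 1 library gave 7 to 26 higher and 3 to 9 lower (6 to 20 and 3 to 18 after scaling, with medians of -0.0119, 0.0142 and 0.00212 without LPC 1, 2 and 3 and 0.011, -0.00787 and 0.00386 without LCP 1, 2 and 3), 4 to 22 BGI_novel and 6 to 14 EVM calls. Scaling gave 2 liver-enriched calls in place of 0 and 1 brain-enriched call in place of 2. Liver against muscle gave 33 and 13 calls, 54 and 21 after scaling, 15 and 7 after quantile normalization, and 6 to 49 and 1 to 15 without 1 liver library. Liver against brain gave 6 and 2, 2 and 3 after scaling, 3 and 4 after quantile normalization, and 3 to 11 and 1 to 2 without 1 library. Muscle had 134 higher and 173 lower after scaling, and 55 to 1331 and 6 to 66 without 1 muscle library. LPC minus LCP in the share of the 10 most abundant IDs was -5.25 percentage points, and for the single most abundant ID it was 0.454 (exact permutation p = 0.9). The cause was not tested where a count moved. A fit with all 12 livers had 37 and 8 calls, of which 22 were among the 45. The alternatives for BGI_novel IDs, and those without 1 library for muscle and for the tissue differences, were chosen after seeing the data.

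Deviations from the group means of same-numbered LPC and LCP livers had correlations of 0.01, 0.06 and 0.29, against -0.223 to 0.133 for unlike numbers. Within a cross, same-numbered libraries had 0.005 to 0.261 for liver and muscle, against -0.261 to 0.110 for unlike numbers. For liver and brain these were 0.077 to 0.162, against -0.120 to 0.014. The tissues of a cross may thus not be independent, and whether equal numbers mark related libraries is unknown. With the replicate number as a block, 10 IDs were higher and 4 lower (7 and 4 after scaling, with a median of 0.00216). A block of same-numbered libraries across tissues gave 46 and 24 calls for liver against muscle and 9 and 2 for liver against brain.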

Other observations

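Some named IDs were high in some libraries of a parental species and near 0 in others, and the same library numbers were low in all 3 tissues. These IDs were singled out after their values were seen, and the labels do not say that equal numbers mark the same fish. BGI_novel_G001563 had an FPKM of 30.5, 7.00 and 0 in LP livers, 97.0, 59.0 and 0 in LP brains, and 15.8, 5.57 and 0.39 in LP muscles, so the third library was lowest each time. BGI_novel_G000242 was listed at 0 in the second LP library of liver, brain and muscle, while the first had 12.2, 3.14 and 1.59 in these tissues. evm.model.Chr7.220 was lowest in the first LP library of each tissue, with 0.13 in liver, 2.65 in brain and 0.05 in muscle, against 9.90, 12.2 and 3.35 in the second. BGI_novel_G001631 was highest in the third LC library of each tissue, with 17.4, 139 and 10.6, against 0.29 or less in the first and second. At all 4 IDs the 3 libraries of LPC in each tissue lay on 1 side of those of LCP, except for G001631 in muscle.

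Across the IDs tested in both tissues, the scaled log2 difference between the hybrids in liver had a Pearson r of 0.33 and a Spearman rho of 0.18 with that in brain (9516 IDs), and 0.22 and 0.13 with that in muscle (7773 IDs). These are descriptions across IDs, which are not independent replicates and share their scaling.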
